A study of Mus musculus with 4 samples.

Results

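Fatty acid oxidation genes were followed in LSK cells, the bone marrow fraction without lineage markers that carries c-Kit and Sca1 and holds haematopoietic stem cells and multipotent progenitors. Of the 37 genes chosen by pathway membership, 35 had at least 1 probe set annotated to them alone, with 66 probe sets in all out of 45037 tested. Acsl1 and Cpt1b had none and are not analysed here. The cells came from the femurs of mice labelled WT B6/129 and were sorted on c-Myc-eGFP, c-Myc protein carrying a green fluorescent tag. They gave a Hi group and a Lo group, with 2 Affymetrix arrays each. Both groups thus carry the tagged protein and differ in how much of it the cells held; no treatment is given. The age of the mice and whether the 2 arrays of a group came from separate mice are not given in the sources used here, so all p-values measure the spread between these arrays, which may be technical. Of each sample 5 ng of total RNA was amplified before labelling.

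Fatty acid oxidation turns fatty acids into acetyl-CoA and reduced cofactors. Fatty acids enter the cell through carriers, are activated to acyl-CoA, cross the mitochondrial membranes as carnitine esters and are shortened in a repeated cycle of dehydrogenation, hydration, dehydrogenation and thiolysis. Peroxisomes run a parallel cycle on very long and branched chains. The nuclear receptors of the PPAR family and their PGC-1 coactivators switch these genes on, and in mouse stem cells the PPAR delta branch is known for its part in stem cell maintenance, while c-Myc is known as a driver of growth and proliferation.

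The median difference of the fatty acid oxidation genes was close to 0. The median difference of Hi minus Lo over the 35 genes was -0.03 on the log2 intensity scale, against 0.03 over all 18193 genes, with each gene read from its probe set of highest mean over the 4 arrays. The median absolute difference was 0.17 for the 35 genes and 0.25 for all genes, or 0.32 for the 11912 genes above the dim limit on all 4 arrays. The dim limit is the brightest of 27 bacterial control probe sets on the same array, between 4.74 and 4.87, and 31 of the 35 genes were above it on all 4 arrays. The largest differences in size were in the acyl-CoA synthetase gene Acsl6, far higher in Hi cells, then the coactivator gene Ppargc1a, the acyl-CoA dehydrogenase gene Acadvl, the receptor gene Ppard and the dehydrogenase gene Acadm, all at lower values in Hi cells.

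No single gene passed the test over the whole array. By limma with Benjamini-Hochberg adjustment over 45037 probe sets, 0 of the 66 probe sets passed an adjusted p of 0.05, where the background was 0% in either direction and the smallest adjusted p of any probe set was 0.0839. With an unadjusted p below 0.05, 1 of 35 genes was higher in Hi cells (Acsl6), against 9.25% of all genes, and 2 were lower (Acadm and Ppargc1a), against 11.0% of all genes. Over the 66 probe sets the same counts were 5 higher and 2 lower, where 9.05% of all probe sets were higher and 8.91% lower. In 6 of the 35 genes (17.1%) the Hi values both exceeded the Lo values, where 30.0% of all genes did so, and in 12 they were both below (34.3%), where 25.4% of all genes did so. Of the 11912 genes above the dim limit on all 4 arrays, 29.5% were higher and 31.5% lower without overlap. The remaining 17 of the 35 genes had overlapping groups. The count of lower genes depended on the Lo arrays: leaving out Lo replicate 2 made it 5 (Acsl4, Slc25a20, Acadvl, Acadm and Ppargc1a), and leaving out Lo replicate 1 made it 3, namely Slc27a4, Cpt1a and Ppard. It was 1 without either Hi replicate, Ppargc1a each time. The count of higher genes was 2 without Hi replicate 2, which added Ppargc1b, without Lo replicate 1, which added Acsl4, or without Lo replicate 2, which added Echs1.

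**Figure D1:**
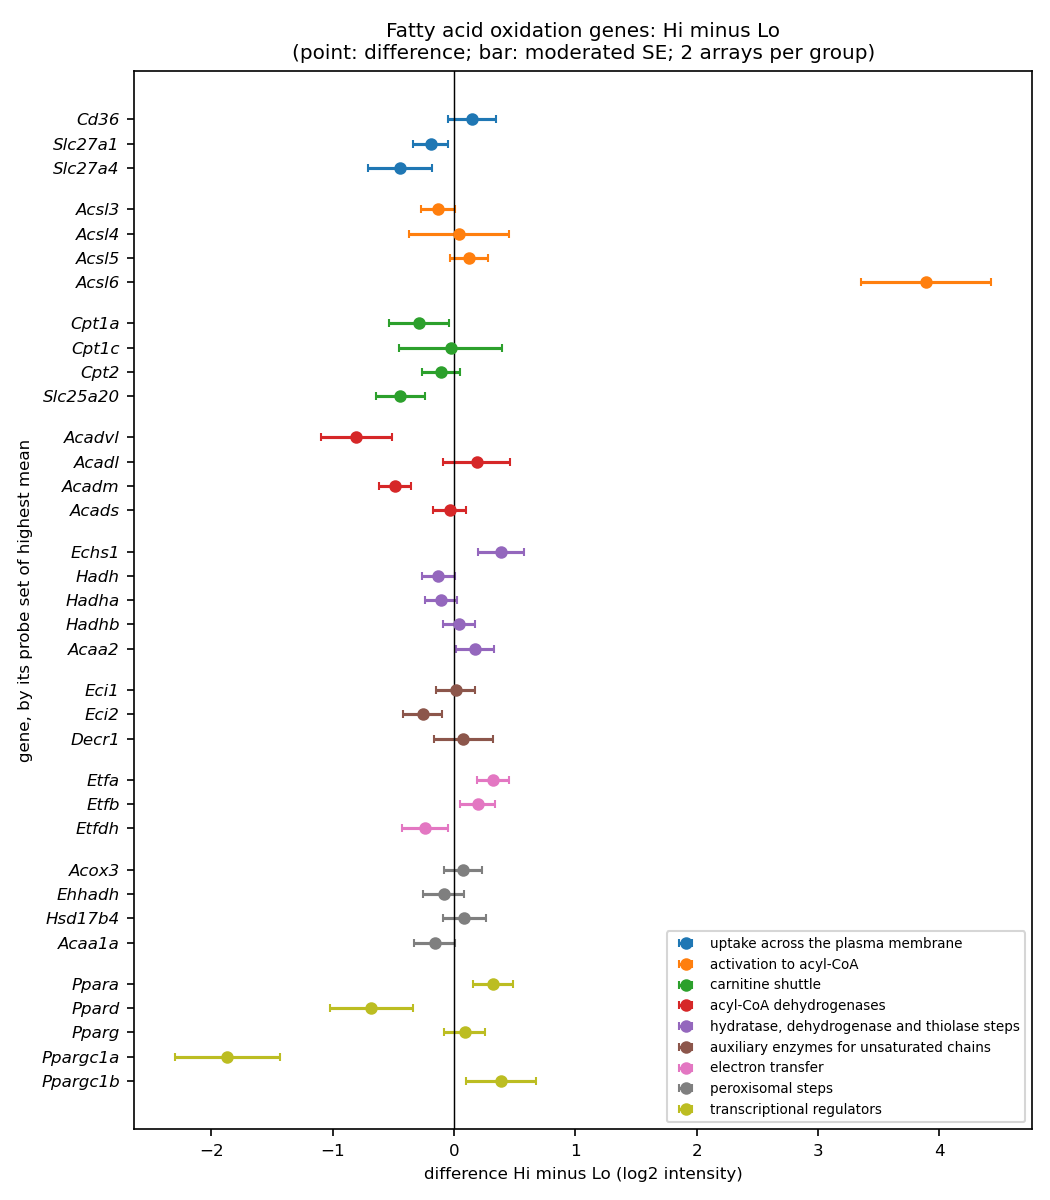
Difference of Hi minus Lo in log2 intensity (x axis) for the 35 genes (y axis), grouped by role and coloured likewise. Points are differences by the probe set of highest mean and bars are moderated standard errors. Acsl6 at 3.89 and Ppargc1a at -1.87 stand apart from the other genes, which lie between -0.81 and 0.39.

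The whole arrays were close to each other in distribution, with median log2 intensities between 5.70 and 5.82. Markers of some cell types and DNA replication genes moved with the groups. All 10 long-term stem cell markers had both Hi arrays below both Lo arrays, and their intensities summed to 7812 and 7586 in Hi and 21837 and 19805 in Lo. Of 11 erythroid markers 8 were higher in Hi without overlap, with summed intensities of 29989 and 34278 in Hi and 15686 and 16127 in Lo. Of 9 markers of granulocyte and monocyte precursors 7 were higher without overlap, with sums of 56651 and 52742 in Hi and 24644 and 23540 in Lo. DNA replication genes were higher without overlap in 11 of 12, with sums of 59065 and 60624 in Hi and 33935 and 35369 in Lo. Of all genes 30.0% were higher and 25.4% lower in Hi without overlap. Of 8 macrophage markers 2 were higher and 0 lower without overlap. Of 5 B cell markers 2 were higher and 2 lower, and of 6 megakaryocyte markers 3 were higher and 2 lower. Of 6 T and NK cell markers 1 was higher and 3 lower, and the counts were the same for 6 endothelial markers. The part of all these markers in the results was not tested. Kit, which defines LSK cells, was bright on all 4 arrays with overlapping groups; Ly6a, the gene of Sca1, is not analysed here. Of the other genes listed for LSK cells Flt3 overlapped too, Cd34 differed by 0.11 ± 0.13 (SE), and Slamf1 at -1.68 ± 0.52, Cd48 at 0.74 ± 0.19 and Ptprc at -0.58 ± 0.15 differed without overlap and with an unadjusted p below 0.05. Adipocyte markers were near the dim limit: Lep and Cidec were at or under it on all 4 arrays, and the 4 measured markers summed to 82.3 and 96.6 in Hi and 70.1 and 80.7 in Lo. The log2 intensity of the 3′ minus the 5′ Gapdh control, a sign of RNA quality, stood at 0.63 and 0.65 in Hi and 0.74 and 0.78 in Lo. The like value of the Actb control stood at 0.60 and 0.55 in Hi and 0.84 and 0.57 in Lo, with overlapping groups. In sorted bulk cells, fewer cells of a type and less RNA per cell cannot be told apart.

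With all 4 arrays, none of the measured uptake genes reached an unadjusted p of 0.05 by limma. Cd36, the fatty acid translocase, had log2 intensities of 5.53 and 5.11 in Hi and 5.20 and 5.15 in Lo, so its groups overlapped and both stood close to the dim limit. Its other 2 probe sets had the opposite sign, at -0.23 and -0.78. Slc27a1 and Slc27a4 encode fatty acid transport proteins that also activate their cargo. Slc27a1 differed by -0.19 ± 0.15 (SE) and Slc27a4 by -0.45 ± 0.27, each with both Hi arrays below both Lo arrays. Leaving out Lo replicate 1 gave -0.75 for Slc27a4, and leaving out Lo replicate 2 gave -0.14.

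The activation step held the largest difference of the 35 genes. Acsl6, a long-chain acyl-CoA synthetase known from brain and, in human, from red cell precursors, had log2 intensities of 6.68 and 8.14 in Hi and 3.44 and 3.60 in Lo. Both Lo arrays were under the dim limit and both Hi arrays were well above it, so Acsl6 was at least 6.30-fold higher in Hi. This bound sets the Hi mean of 7.41 ± 1.03 against the Lo arrays placed at their dim limit, while the Lo mean itself was 3.52 ± 0.11 (SD, n = 2 each). The bound was 3.80-fold without Hi replicate 2 and 10.5-fold without Hi replicate 1. The fitted difference of Acsl6 was 3.89 ± 0.54 (SE), with a limma adjusted p of 0.0985 over all probe sets. In a separate limma fit on the average over each gene's probe sets, Acsl6 passed with a difference of 2.67 and an adjusted p of 0.0317; in that fit 1.39% of all genes were called higher and 1.52% lower. In a limma fit with 1 probe set per gene its adjusted p was 0.0535, where 1.04% of genes were called higher and 1.18% lower. The second Acsl6 probe set gave 1.45, with all 4 arrays under the dim limit. Its Hi values were 4.33 and 3.84, in the opposite order to those of the brighter probe set. The average over probe sets thus includes this dim signal, and its SE was 0.24, against 0.54 for the brighter probe set alone. Of the 11 erythroid markers 8 were likewise higher in Hi without overlap, while Car2 was lower and Alas2 and Slc4a1 overlapped. Also higher without overlap were 7 of 9 granulocyte and monocyte precursor markers and 11 of 12 DNA replication genes. The share of all genes was 30.0%. A link of Acsl6 to any of these was not tested.

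The other synthetases gave no such difference at their brightest probe set. Acsl5, of the outer mitochondrial membrane and endoplasmic reticulum, had 12.50 and 12.56 in Hi and 12.29 and 12.53 in Lo, with overlapping groups and a difference of 0.12 ± 0.16 (SE). Acsl3, a synthetase of the endoplasmic reticulum and lipid droplets, differed by -0.13 ± 0.14. Its other 2 probe sets gave 0.02 and, without overlap between the groups, -0.92 ± 0.48. Acsl4, which prefers arachidonic acid, was split by probe set. Its brightest probe set had 11.26 and 11.27 in Hi and 11.78 and 10.67 in Lo, a spread within Lo that covered both Hi arrays. Its second brightest probe set had 7.85 and 7.53 in Hi and 6.63 and 5.79 in Lo, a difference of 1.48 ± 0.34 (SE) at an unadjusted p of 0.0125 and a limma adjusted p of 0.163. The remaining Acsl4 probe set gave 0.11.

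**Figure D2:**
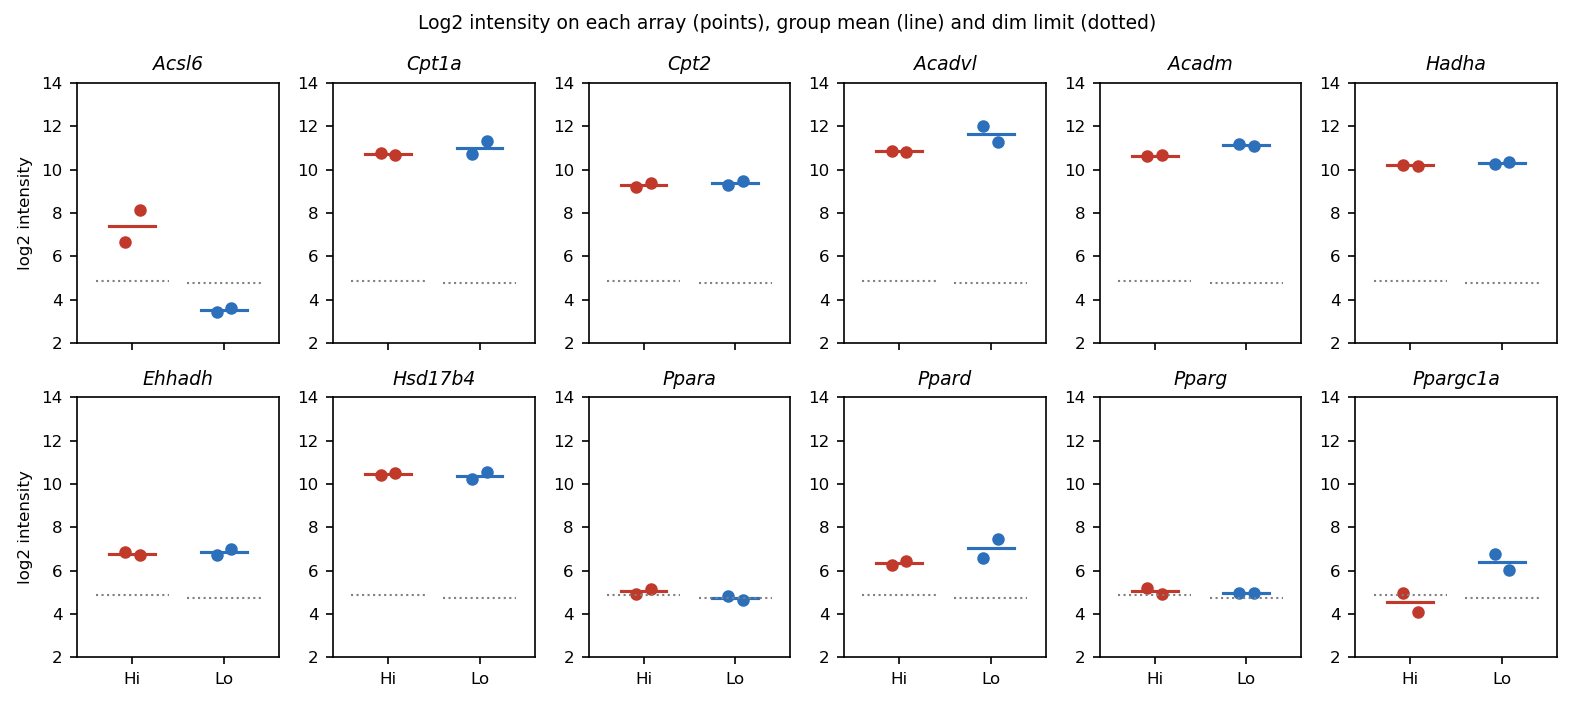
Log2 intensity (y axis) of 12 genes on the Hi arrays (left, red) and the Lo arrays (right, blue), 2 arrays each. Points are arrays, short lines are group means and dotted lines the mean dim limit of the group. Acsl6 lies under the dim limit in Lo and above it in Hi, Ppargc1a lies lower in Hi, and the points of Cpt2, Hadha, Hsd17b4 and Ehhadh lie at nearly the same height in both groups.

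All 4 measured genes of the carnitine shuttle had negative differences, and none reached an unadjusted p of 0.05; with arrays shifted to 1 median Cpt1c turned positive, at 0.068. Cpt1a, the rate-limiting carnitine palmitoyltransferase of the outer mitochondrial membrane, had 10.77 and 10.69 in Hi and 10.72 and 11.31 in Lo. The groups overlapped, since Lo replicate 1 lay between the Hi arrays, and the difference was -0.29 with a 95% interval from -0.98 to 0.40. Leaving out Lo replicate 1 gave -0.58 and leaving out Lo replicate 2 gave 0.01; the other 2 probe sets of Cpt1a gave -0.07 and -0.21. Cpt2, which reforms acyl-CoA inside the mitochondrion, had 9.20 and 9.38 in Hi and 9.30 and 9.49 in Lo, again with overlap. Slc25a20, the carnitine-acylcarnitine translocase between these enzymes, had 11.77 and 11.75 in Hi and 12.42 and 11.98 in Lo, with no overlap. Its difference was -0.44 ± 0.20 (SE), adjusted p = 0.363 by limma, and its second probe set gave -0.42 ± 0.18. Cpt1c, a neuronal form with little enzyme activity, was around the dim limit and differed by -0.03 ± 0.42.

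The acyl-CoA dehydrogenases open each round of mitochondrial oxidation and are specific for chain length. Acadvl, for very long chains, had 10.87 and 10.81 in Hi and 12.02 and 11.28 in Lo. Both Hi arrays were below both Lo arrays, and the Lo arrays were 0.52 apart as an SD. The difference was -0.81 ± 0.29 (SE), with an unadjusted p of 0.0518 and a limma adjusted p of 0.282, and leaving out Lo replicate 2 gave -1.18 and leaving out Lo replicate 1 gave -0.44. Acadm, for medium chains, had 10.61 and 10.69 in Hi and 11.16 and 11.11 in Lo. Its groups were far apart relative to the spread within each, with a difference of -0.48 ± 0.13 (SE), 1.40-fold lower in Hi, an unadjusted p of 0.0221 and a limma adjusted p of 0.2. Over 13 alternatives its difference ran from -0.52 to -0.39, and the smallest limma adjusted p was 0.108. Alternatives that change only the test, the block, the filter or the choice of probe sets left the difference at -0.48. Acadl, for long chains, differed by 0.19 ± 0.27, and Acads, for short chains, by -0.04 ± 0.14. Both had overlapping groups.

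At their brightest probe sets the later steps of the mitochondrial cycle had differences of at most 0.39. Hadha and Hadhb encode the 2 subunits of the trifunctional protein, which carries out the last 3 reactions on long chains at the inner membrane. Hadha had 10.24 and 10.17 in Hi and 10.28 and 10.34 in Lo, a difference of -0.11 with a 95% interval from -0.48 to 0.26. Hadhb had 11.70 and 11.72 in Hi and 11.62 and 11.72 in Lo, a difference of 0.04 with a 95% interval from -0.33 to 0.41. A dimmer Hadhb probe set gave 0.64 ± 0.16 (SE) at an unadjusted p of 0.0165, and the remaining one -0.09. The genes lie head to head, on opposite strands, with 272 bases between their RefSeq start sites, so the window of 250 bases before to 50 after the Hadhb start shares 228 bases with that of Hadha. It is shown as the start region common to a pair of subunits whose brightest probe sets both stood near 0, and it holds none of the motifs described further on.
Hadhb, GRCm38.p6, chr5:30155003-30155302, plus strand: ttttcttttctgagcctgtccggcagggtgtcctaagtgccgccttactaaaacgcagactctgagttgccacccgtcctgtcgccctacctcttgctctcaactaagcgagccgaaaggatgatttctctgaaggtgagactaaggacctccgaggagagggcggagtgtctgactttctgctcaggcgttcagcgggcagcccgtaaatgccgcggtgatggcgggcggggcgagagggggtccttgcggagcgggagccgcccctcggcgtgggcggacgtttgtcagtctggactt

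Echs1, the short-chain enoyl-CoA hydratase, had 11.01 and 10.92 in Hi and 10.38 and 10.77 in Lo, with no overlap and a difference of 0.39 ± 0.19 (SE), adjusted p = 0.39 by limma. Acaa2, the mitochondrial thiolase, differed by 0.17 ± 0.15 at its brightest probe set. A dimmer Acaa2 probe set gave 0.60 ± 0.14 at an unadjusted p of 0.0121, and the remaining one 0.17. All 3 were positive. Hadh, the short-chain hydroxyacyl-CoA dehydrogenase, differed by -0.13 ± 0.14, with its other 2 probe sets at -0.07 and -0.20. Of the auxiliary enzymes that prepare unsaturated chains, Eci1 at 0.01 ± 0.16 and Decr1 at 0.08 ± 0.24 had overlapping groups. Eci2, an isomerase found in mitochondria and peroxisomes, had both Hi arrays below both Lo arrays, at -0.26 ± 0.16.

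Genes of electron transfer from the dehydrogenases to the respiratory chain went both ways. Etfa and Etfb encode the 2 subunits of electron transfer flavoprotein. Etfa had 12.41 and 12.37 in Hi and 12.04 and 12.09 in Lo, a difference of 0.32 ± 0.13 (SE), and Etfb differed by 0.19 ± 0.14. Both were higher in Hi without overlap, with limma adjusted p of 0.32 and 0.543. Etfa passed an unadjusted p of 0.05 under 3 scaling or prior alternatives and in the unmoderated test. Etfdh, the membrane enzyme that takes the electrons over, had both Hi arrays below both Lo arrays at -0.24 ± 0.19. Its second probe set, above the dim limit on 1 array only, gave 0.64.

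The peroxisomal steps had small differences. All 4 genes had overlapping groups, as did all 7 of their probe sets, and no difference exceeded 0.16. Acox3, an oxidase of branched chains, differed by 0.07 ± 0.16 (SE), with all its values close to the dim limit. Hsd17b4, the D-bifunctional enzyme, had 10.40 and 10.52 in Hi and 10.22 and 10.54 in Lo, a difference of 0.08 with a 95% interval from -0.40 to 0.57. Ehhadh, the L-bifunctional enzyme and a classic PPAR alpha target in mouse liver, had 6.86 and 6.73 in Hi and 6.74 and 7.02 in Lo, a difference of -0.09 with a 95% interval from -0.56 to 0.39. Each pair of Hi values lay inside or across the range of the Lo values. Acaa1a, the peroxisomal thiolase, differed by -0.16 ± 0.17. Its probe sets are of a type that can also bind related transcripts, and 2 further ones were annotated to Acaa1a and Acaa1b together and left out. Of the same type were the brightest probe set of Hadh and the only one of Acadsb, a gene described below. So were dimmer probe sets of Cpt1a, Cpt2, Hadh, Hadhb, Hsd17b4 and Ppargc1a.

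Set side by side, mitochondrial and peroxisomal steps had the same median difference to within the spread between arrays. The median was -0.04 over 19 mitochondrial genes and -0.01 over 4 peroxisomal genes, against 0.03 over all genes. On single arrays, the median of gene-centred values of the mitochondrial genes stood at -0.09 and 0.03 in Hi and -0.07 and 0.08 in Lo. For the peroxisomal genes it stood at -0.02 and -0.01 in Hi and -0.08 and 0.15 in Lo. On this measure the 2 arrays of Lo lay further apart than the means of the groups. Spread among genes was wider for the mitochondrial steps, from -0.81 for Acadvl to 0.39 for Echs1, than for the peroxisomal ones, from -0.16 to 0.08, which are only 4 genes. Of the 19 mitochondrial genes 4 were higher (21.1%) and 7 lower (36.8%) in Hi without overlap, against 30.0% higher and 25.4% lower of all genes. Among genes above the dim limit on all 4 arrays the shares were 29.5% higher and 31.5% lower. With all arrays shifted to 1 median, which raised the median of all genes to 0.12, the medians were 0.06 and 0.09, both below that of all genes.

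**Figure D3:**
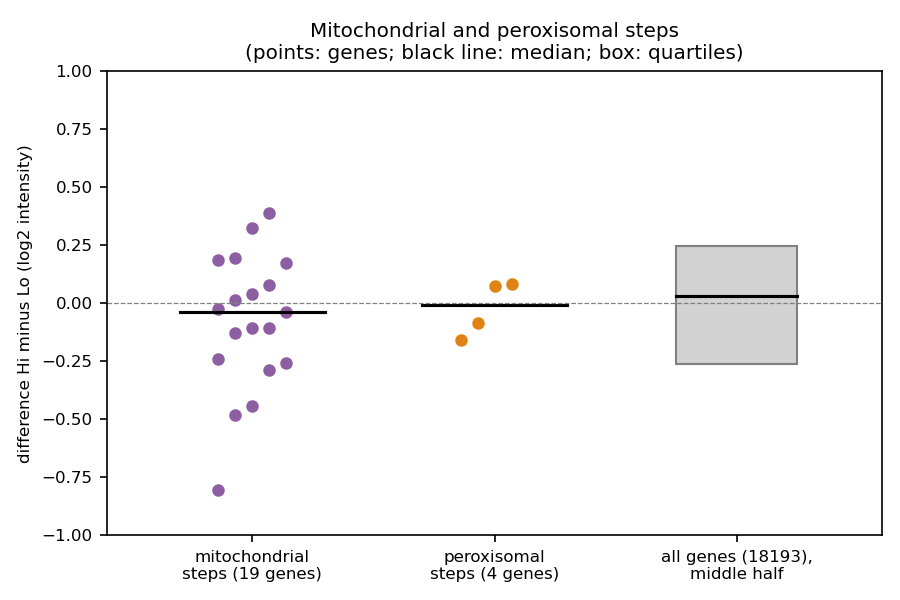
Difference of Hi minus Lo in log2 intensity (y axis) for 19 mitochondrial and 4 peroxisomal genes (points, black line at the median) beside the quartiles and median of all 18193 genes (grey box). Both medians, -0.04 and -0.01, lie close to 0, and all 4 peroxisomal genes lie inside the quartiles of all genes.

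Among the regulators, Ppargc1a had the largest difference. It encodes PGC-1 alpha, the coactivator that drives mitochondrial biogenesis and fatty acid oxidation, and its brightest probe set had 4.97 and 4.11 in Hi and 6.80 and 6.02 in Lo. Both Lo arrays were above the dim limit, but of the Hi arrays only replicate 1 was, and by little. The difference was -1.87 ± 0.43 (SE), with an unadjusted p of 0.0124 and a limma adjusted p of 0.163. All 5 Ppargc1a probe sets gave negative differences, at -1.87, -0.83, -0.77, -0.52 and -0.39; those of -0.52 and -0.39 had overlapping groups, and that of -0.77 was under the dim limit on all 4 arrays. The mean of all 5 gave -0.88 with an unadjusted p of 0.0873 by limma. The unadjusted p was also above 0.05 in the unmoderated test, at 0.084, and without Lo replicate 1, at 0.0603. All 10 long-term stem cell markers were likewise lower in Hi without overlap. So were 3 of 6 T and NK cell markers and 3 of 6 endothelial markers, with 1 higher in each list. The share of all genes lower without overlap was 25.4%. A link of Ppargc1a to any of these was not tested. The paralogue Ppargc1b had 8.14 and 7.41 in Hi and 7.44 and 7.33 in Lo, with overlap and a difference of 0.39 ± 0.29.

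Of the 3 receptors none reached an unadjusted p of 0.05. Ppard, the PPAR delta gene, had 6.25 and 6.45 in Hi and 6.60 and 7.47 in Lo at its brightest probe set. Both Hi arrays lay below both Lo arrays, with a difference of -0.68 ± 0.34 (SE) and a limma adjusted p of 0.397, while the dimmer probe set gave 0.23 ± 0.16. Leaving out Lo replicate 1 gave -1.12 and leaving out Lo replicate 2 gave -0.25. Ppara had 4.95 and 5.16 in Hi and 4.84 and 4.63 in Lo, around the dim limit, with a difference of 0.32 ± 0.17. Pparg, known for adipocytes and macrophages, had 5.22 and 4.91 in Hi and 4.96 and 4.98 in Lo, only just above the limit and with overlap.

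**Figure D4:**
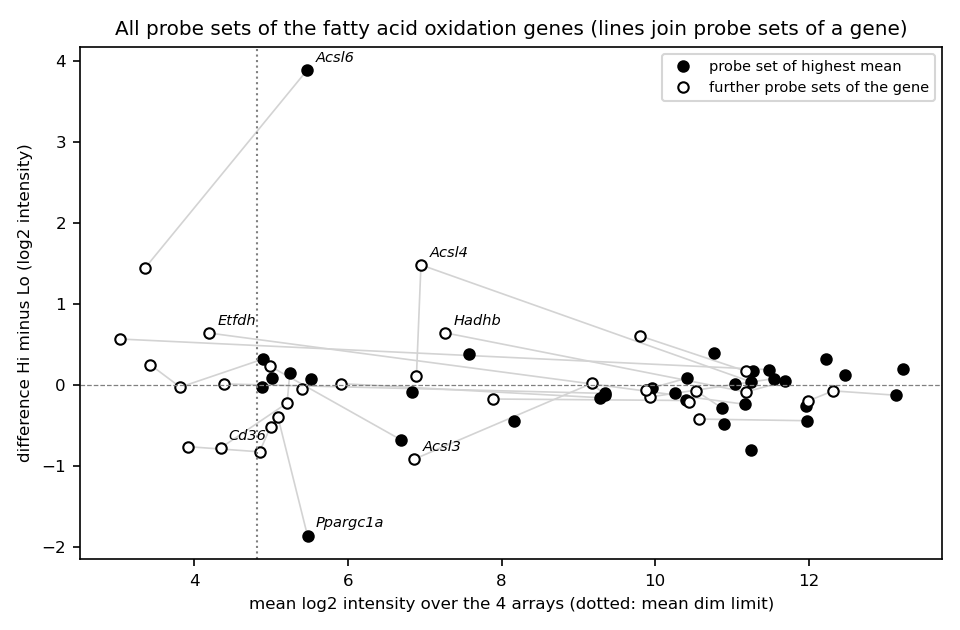
Difference of Hi minus Lo in log2 intensity (y axis) against the mean log2 intensity over 4 arrays (x axis) for all 66 probe sets, with lines joining those of 1 gene and the mean dim limit dotted. Filled points are each gene's brightest probe set and open points the others. Large differences lie at low and middle intensity, and above a mean of 10 the brightest probe sets lie between -0.81 and 0.39.

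Of the 35 genes 20 had more than 1 probe set, and in 11 of these a further probe set had the opposite sign. Under the 13 alternatives, 21 of the 35 genes kept their sign in all of them, among them Acsl6, Acadm, Acadvl, Slc25a20, Echs1, Etfa, Ppard and Ppargc1a. The unmoderated test, the robust prior, the dim filter, the replicate block and 1 probe set per gene leave each gene's difference unchanged. They cannot turn a sign, and neither can the average over probe sets for a gene with only 1 probe set.

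The RefSeq windows of 250 bases before to 50 after the start sites were searched on both strands for motifs of the factors involved. Windows were found for 31 of the 35 genes, 37 in all. The E-box CACGTG, bound by c-Myc with Max, was in 1 of the 37 windows, one of Slc27a1, and in 7.15% of all 32851 windows. The hexamer AGGTCA, on which nuclear receptors including the PPAR family build their sites, was in 9 of the 37, from 8 genes, and in 16.3% of all windows. The direct repeat AGGTCANAGGTCA was in 0 of the 37 and in 0.0396% of all. The extended hexamer TCAAGGTCA, which contains AGGTCA and is known as the site of estrogen-related receptors, partners of PGC-1 alpha, was in 1 of the 37 and in 0.423% of all. That window belongs to Acsl6. The windows of Acsl6, with the largest difference, and of Acadvl and Acadm, the dehydrogenases with the largest negative differences, are shown, with hexamers in capitals on either strand. The Acsl6 window is 1 of 3 of that gene and its capitals hold a hexamer and the extended hexamer, both on the reverse strand. A match describes letters in these windows and not binding.
Acsl6, GRCm38.p6, chr11:54303574-54303873, plus strand: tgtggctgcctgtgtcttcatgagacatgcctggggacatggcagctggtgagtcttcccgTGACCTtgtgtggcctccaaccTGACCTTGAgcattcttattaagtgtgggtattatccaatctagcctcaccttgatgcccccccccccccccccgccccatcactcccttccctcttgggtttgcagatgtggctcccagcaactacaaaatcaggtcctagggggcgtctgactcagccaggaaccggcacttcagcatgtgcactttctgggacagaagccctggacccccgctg
Acadvl, GRCm38.p6, chr11:70015379-70015678, minus strand: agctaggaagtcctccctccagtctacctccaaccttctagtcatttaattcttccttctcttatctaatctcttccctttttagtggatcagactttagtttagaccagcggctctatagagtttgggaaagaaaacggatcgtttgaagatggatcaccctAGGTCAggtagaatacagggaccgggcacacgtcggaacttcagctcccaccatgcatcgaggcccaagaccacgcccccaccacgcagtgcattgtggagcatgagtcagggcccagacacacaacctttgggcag
Acadm, GRCm38.p6, chr3:153944594-153944893, minus strand: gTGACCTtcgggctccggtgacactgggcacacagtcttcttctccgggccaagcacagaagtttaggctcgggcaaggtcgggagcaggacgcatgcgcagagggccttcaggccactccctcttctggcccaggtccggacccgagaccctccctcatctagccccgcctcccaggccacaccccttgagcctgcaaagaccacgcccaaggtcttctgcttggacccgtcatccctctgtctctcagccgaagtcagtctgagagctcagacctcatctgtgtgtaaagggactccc

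Around the pathway, known PPAR targets and lipid-handling genes went both ways. Of 14 measured PPAR targets and lipid release genes, 4 were higher and 3 lower in Hi with an unadjusted p below 0.05, against 9.25% higher and 11.0% lower of all genes. Of these, 0 passed the adjusted threshold of limma, and the median of the list was 0.05. Pdk4, the kinase that shuts pyruvate out of the citric acid cycle when fatty acids are burnt, had 5.88 and 4.67 in Hi and 9.72 and 8.90 in Lo. The arrays were far apart, and of the Hi arrays only replicate 1 was above the dim limit. The difference was -4.04 ± 0.53 (SE), with a limma adjusted p of 0.0968. Vnn1, a pantetheinase and PPAR alpha target in mouse liver, had 7.84 and 7.90 in Hi and 10.25 and 10.41 in Lo, a difference of -2.46 ± 0.14 with a limma adjusted p of 0.0839. Its other probe set gave -2.52. Both genes passed in the fit on the average over each gene's probe sets, with adjusted p of 0.041 for Pdk4 and 0.0313 for Vnn1. Lipe, the hormone-sensitive lipase, stood at -0.66 ± 0.16, and its dim second probe set at 0.47.

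In the same list Angptl4, a secreted lipase inhibitor, had 9.58 and 9.59 in Hi and 7.75 and 8.30 in Lo, a difference of 1.56 ± 0.23 (SE) with a limma adjusted p of 0.105. A second Angptl4 probe set, under the dim limit on 3 of 4 arrays, gave -1.56, so that the mean of both gave -0.00. Fabp5, a fatty acid binding protein, differed by 0.86 ± 0.14 and its other probe set by 1.40. The monoacylglycerol lipase gene Mgll differed by 1.03 ± 0.18, with all 4 of its probe sets positive, and the uncoupling protein gene Ucp3 by 0.54 ± 0.17. Ucp3 was close to the dim limit, with Lo replicate 1 under it and its other probe set under it on all 4 arrays. Fabp5 and Mgll passed in the fit on the average over each gene's probe sets, with adjusted p of 0.039 and 0.0342. Pdk4 and Vnn1 on the lower side and Angptl4 on the higher side are all listed PPAR targets.

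Of 21 measured partners and regulators, 1 was higher and 6 lower in Hi with an unadjusted p below 0.05, against 9.25% higher and 11.0% lower of all genes, and the median was -0.01. Sirt3, the mitochondrial deacetylase that acts on oxidation enzymes, had 11.65 and 11.79 in Hi and 12.42 and 12.40 in Lo, a difference of -0.69 ± 0.14 (SE). Acacb makes the malonyl-CoA that blocks Cpt1, and it had 6.79 and 7.33 in Hi and 8.16 and 8.34 in Lo, a difference of -1.19 ± 0.24. A dimmer Acacb probe set gave 0.25. Rxra, the dimer partner of the PPARs, stood at -1.09 ± 0.33, or -0.40 with the mean of its 3 probe sets, and Lpin1, a phosphatidate phosphatase that also assists PGC-1 alpha, at -0.80 ± 0.23. The higher gene was Pprc1, the remaining PGC-1 family member, at 0.91 ± 0.28. Across the PGC-1 family the values in Hi were thus lower for Ppargc1a, and higher for Pprc1, at unadjusted p of 0.0124 and 0.0322, with overlapping groups for Ppargc1b. The limma adjusted p was 0.139 for Sirt3 and Acacb, 0.211 for Lpin1, 0.228 for Rxra and 0.232 for Pprc1.

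**Figure D5:**
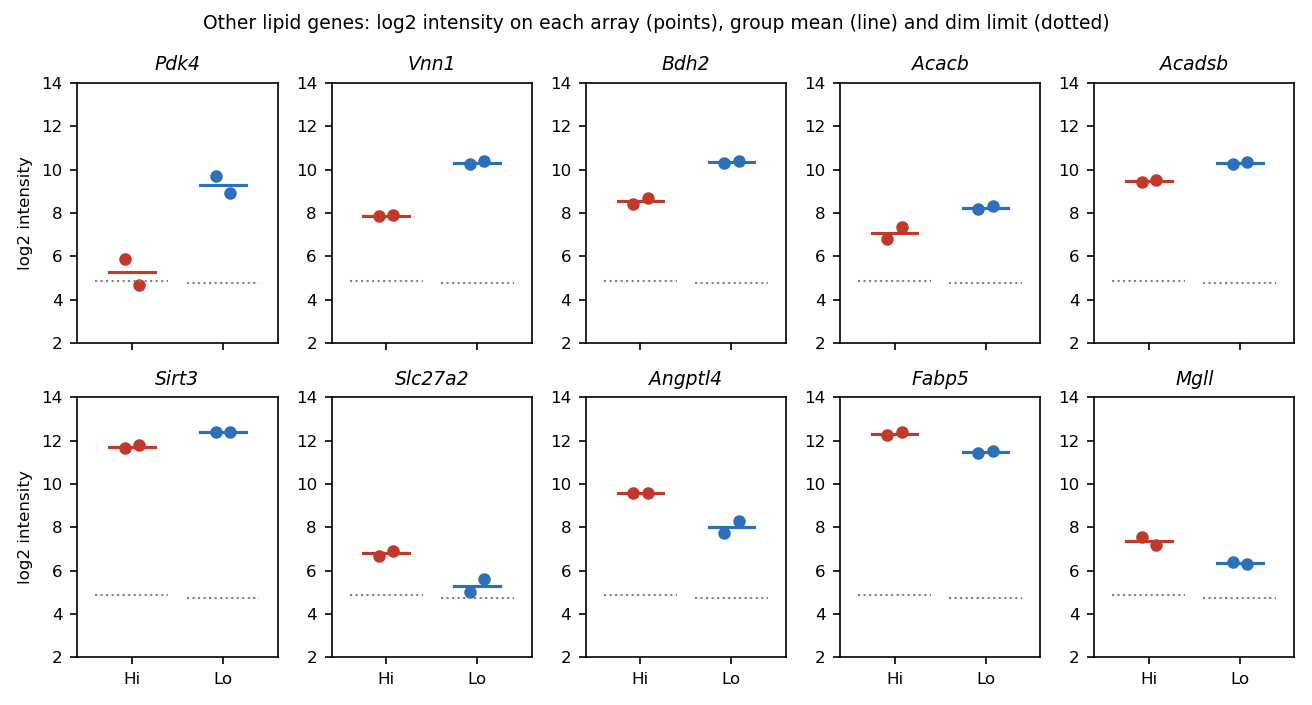
Log2 intensity (y axis) of 10 lipid genes outside the 35 on the Hi arrays (left, red) and the Lo arrays (right, blue). Points are arrays, short lines group means and dotted lines the dim limit. Pdk4, Vnn1, Bdh2, Acacb, Acadsb and Sirt3 lie lower in Hi, and Slc27a2, Angptl4, Fabp5 and Mgll higher.

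Further peroxisomal lipid genes went both ways. Of 19 measured, 4 were higher and 4 lower with an unadjusted p below 0.05, against 9.25% higher and 11.0% lower of all genes, and the median was -0.05. Slc27a2, a very long-chain acyl-CoA synthetase, had 6.67 and 6.92 in Hi and 5.01 and 5.61 in Lo, a difference of 1.49 ± 0.27 (SE) with a limma adjusted p of 0.123. The other higher genes were the thioesterase gene Acot8 at 0.53 ± 0.14, the coenzyme A hydrolase gene Nudt19 at 0.68 ± 0.21 and the sterol carrier and thiolase gene Scp2 at 0.40 ± 0.14. Further Scp2 probe sets gave -0.002 and -0.05 with overlapping groups and 0.51 without overlap. Lower in Hi were the racemase gene Amacr, needed for branched chains, at -0.81 ± 0.16, the thioesterase gene Acot4 at -0.52 ± 0.14, the carnitine octanoyltransferase gene Crot at -0.70 ± 0.20 and Abcd4, now known as a lysosomal cobalamin transporter gene, at -0.60 ± 0.18. The second probe set gave -0.11 with overlap for Acot4, 0.05 under the dim limit for Crot and -0.66 for Abcd4. Among 13 peroxisome biogenesis genes 0 were higher and 1 lower with an unadjusted p below 0.05, against 9.25% higher and 11.0% lower of all genes. This was Pex11a, of peroxisome division, at -0.72 ± 0.16, with its other probe set at -0.89.

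Of a further list of acyl-CoA and carnitine genes, most of them mitochondrial, 25 were measured. Of these, 1 was higher and 1 lower with an unadjusted p below 0.05, against 9.25% higher and 11.0% lower of all genes, and the median was -0.001. Acadsb, the dehydrogenase of short branched chains from isoleucine breakdown, had 9.45 and 9.52 in Hi and 10.26 and 10.34 in Lo, a difference of -0.82 ± 0.13 (SE) with a limma adjusted p of 0.113. Acsf2, a medium-chain acyl-CoA synthetase, stood at 0.58 ± 0.18. Of the 4 measured ketone body genes 0 were higher and 1 was lower with an unadjusted p below 0.05, against 9.25% higher and 11.0% lower of all genes. This was Bdh2, a cytosolic hydroxybutyrate dehydrogenase, with 8.44 and 8.71 in Hi and 10.33 and 10.41 in Lo. Its difference was -1.80 ± 0.16, with a limma adjusted p of 0.0839, or 0.0313 in the fit on the average over each gene's probe sets. The other 3, Bdh1, Oxct1 and Acat1, had both Hi arrays above both Lo arrays, by 0.12 to 0.42. Of all genes 30.0% had both Hi arrays above both Lo arrays.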

How the data were processed

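Per the labels' protocols, RNA from sorted cells was amplified with a NuGEN Ovation kit and hybridised to Affymetrix arrays. The authors deposited 1 linear intensity per probe set and array. Per the submitters' processing notes these come from RMA, without a version. RMA scales arrays to each other, so differences in RNA content per cell are not seen. The intensities were log2-transformed without offset. Of 45101 probe sets, 64 controls were left out. A platform annotation named 34945 probe sets with 1 gene, and symbols were checked through Entrez identifiers against RefSeq GRCm38.p6. Hi minus Lo was fitted over 4 arrays with limma 3.58.1 in R 4.3.3 (lmFit, eBayes, no block, two-sided, 2 residual degrees of freedom). P-values were adjusted over 45037 probe sets. The fit was run on data simulated from its own variance prior with independent errors. That run does not test technical replicates or dim signal. Errors are moderated SEs, or SDs where marked. Array number limits the precision.

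The members, lists, motifs and tests were chosen with earlier results of these data known, and the dim limit after these intensities were seen. All members are reported; array values are printed for members with an unadjusted p under 0.05 and non-overlapping groups, for 10 members fixed by role, and for others chosen after their values were seen. Context genes are up to 4 per direction and list by smallest unadjusted p with non-overlapping groups. The alternatives were an unmoderated test, other priors, scalings, an offset of 16, a dim filter, means over probe sets, a replicate block, leaving out arrays and, chosen after seeing the data, 1 probe set per gene.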

Additional observations from a re-analysis of the deposited data

How the results depend on the processing

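Adjusted over all probe sets, 0 calls became 1 with the unmoderated test, 528 with the average over each gene's probe sets (252 higher and 276 lower in Hi) and 404 with 1 probe set per gene, an alternative chosen after seeing the data (190 higher and 214 lower); the last 2 test fewer features, and it was 0 to 0 without 1 array. The count of the 35 genes higher in Hi with an unadjusted p below 0.05 was 1, and 2 with the unmoderated test, with an intensity trend and robust prior, with arrays shifted to 1 median, with an offset of 16 and with the average over probe sets; without 1 array it ran from 1 to 2. The count lower in Hi was 2, and 1 with the unmoderated test, 3 with the intensity trend and robust prior and with 1 probe set per gene (Acadvl, Acadm and Ppargc1a) and 3 with the average over probe sets (Slc25a20, Acadvl and Acadm), and without 1 array it ran from 1 to 5. The median difference ran from -0.14 to 0.0054 for mitochondrial steps and from -0.15 to 0.021 for peroxisomal steps without 1 array. With the replicate block the fit made 0 calls, its smallest adjusted p was 0.193, and 1 of the 35 genes was higher and 2 were lower (Acadvl and Ppargc1a) with an unadjusted p below 0.05. The arrays share only a replicate number: deviations of same-numbered arrays correlated at 0.0719, over 2 pairs. Differences turned sign as follows, and the cause was not tested. With arrays shifted to 1 median Cpt1c was at 0.068, Acads at 0.057 and Ehhadh at 0.0089, where the median of all genes was at 0.12. Cyclic loess put Eci1 at -0.011, and the offset put Cpt1c at 0.0011. The average over probe sets put Cd36 at -0.29, Decr1 at -0.037, Etfdh at 0.20 and Angptl4 at -0.00074. Leaving out 1 array gave ranges of -0.061 to 0.35 for Cd36, -0.52 to 0.59 for Acsl4, -0.58 to 0.0054 for Cpt1a, -0.56 to 0.50 for Cpt1c, -0.090 to 0.46 for Acadl, -0.096 to 0.021 for Acads, -0.0096 to 0.092 for Hadhb, -0.091 to 0.12 for Eci1, -0.18 to 0.33 for Decr1, -0.046 to 0.19 for Acox3, -0.23 to 0.058 for Ehhadh, -0.074 to 0.24 for Hsd17b4 and -0.066 to 0.24 for Pparg. Signal near the dim limit bounds what Cpt1c, Cd36, Acox3, Ppara, Pparg and Ppargc1a can show, and Ucp3 outside the 35 genes.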
